A study of Homo sapiens with 24 samples.

Results

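The PYHIN genes MNDA, IFI16, AIM2 and PYHIN1 were followed in MOLM-14 and MV4-11 acute myeloid leukemia (AML) cells treated with the receptor tyrosine kinase inhibitor ABT-869, the histone deacetylase inhibitor SAHA or both. These 4 genes had 7 probe sets that the platform annotation gives to them alone, of 41091 probe sets that name 1 gene (19775 genes in all). IFI16 had 3 probe sets, PYHIN1 had 2, and MNDA and AIM2 had 1 each. For every gene the probe set with the highest mean log2 signal over all 24 arrays was taken as its main probe set. The 8 groups were MOLM-14 with ABT-869, SAHA, the combination or DMSO, and MV4-11 with ABT-869, SAHA, the combination or DMSO, with 3 cultures each, described in the study's methods as biological triplicates. ABT-869 was used at 3 nM and SAHA at 6 µM for 24 hours, and the methods do not restate the doses within the combination. Both lines carry FLT3-ITD, an activating duplication in the FLT3 receptor. MV4-11 has only the mutant allele, and MOLM-14 also has a wild-type allele. Each genotype was represented by 1 cell line, so line and genotype cannot be told apart.

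PYHIN proteins join a pyrin domain, which binds other pyrin domains, to 1 or more HIN domains, which bind double-stranded DNA. The genes lie side by side on the long arm of chromosome 1 and are known as interferon-inducible. AIM2 senses DNA in the cytosol and recruits the adaptor PYCARD (ASC) and caspase-1 into an inflammasome, IFI16 senses DNA in the nucleus and the cytosol and signals through STING, MNDA is a nuclear protein of monocytes and granulocytes, and PYHIN1 (IFIX) is a nuclear protein linked to growth control.

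The values were linear array signals made by the authors, and 30.3% of them lay below a signal of 32. Array medians were between 61.2 and 99.4. The deviation of an array from its group mean was over 0.3 (SD, log2 scale) on 5 arrays, among them MOLM-14 DMSO replicate 3 (0.304). Results below changed when this array was left out, and some also changed without other arrays. Of 7 measured myeloid markers 5 lay above the median of all probe sets. LYZ was at 10939 to 18698, ITGAM at 935.0 to 2353 and CSF3R at 940.9 to 1879, while CD14, a marker of mature monocytes, was at 4.10 to 54.6 and FCGR1A at 10.7 to 106.1. Summed over the 7 the signal was 14997 to 26317. The sums over markers of T cells (118.2 to 382.2), B cells (184.1 to 458.0) and erythroid cells (97.2 to 295.7) were low. The epithelial markers summed to 656.7 to 1129.8, most of it KRT18 (487.9 to 1025.3). Of the NK cell markers, NCAM1 (2422 to 4429) and NKG7 (702.9 to 1500) were well measured in both lines and KLRD1 was at 10.9 to 91.5. With 3 arrays a group, the precision is limited by their number. In cultures, a change in signal cannot be told apart from a change in the share of cells that express the gene.

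The sequences before the transcription starts are shown because MNDA and IFI16, whose signals moved in the same direction with SAHA, and PYHIN1, whose signal did not pass any test, share a stretch there. Of the 4 genes all had a promoter in RefSeq (GRCh38.p14), with 2 starts for IFI16. The 250 bases before each start were compared by local alignment. The second start of IFI16 and PYHIN1 shared a stretch with 61 of 74 aligned positions identical (82.4%), and the second start of IFI16 and MNDA shared one with 56 of 77 (72.7%). None of 34783 other promoters scored as high against any gene of these pairs. MNDA and PYHIN1 also shared a stretch further upstream, with 57 of 74 positions identical (77.0%). The first start of IFI16 did not share the stretch: its best alignments were 8 positions with MNDA and 12 with PYHIN1, and 24997 and 18232 of the other promoters scored as high. The second start lies inside the IFI16 gene as RefSeq places it, and the AIM2 start likewise lies inside the AIM2 gene. Which starts these cells use was not measured. In AIM2 the best stretches against the other promoters were short, between 8 and 19 positions. In the MNDA and PYHIN1 stretches below, capitals mark bases identical to IFI16 in the alignment, and in the IFI16 stretch the 43 bases found in both of the others.
MNDA, chr1:158831239-158831313, plus strand, 112 to 38 bases before the start: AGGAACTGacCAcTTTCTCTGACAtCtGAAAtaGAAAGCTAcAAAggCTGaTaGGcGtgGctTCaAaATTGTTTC
PYHIN1, chr1:158931455-158931524, plus strand, 97 to 28 bases before the start: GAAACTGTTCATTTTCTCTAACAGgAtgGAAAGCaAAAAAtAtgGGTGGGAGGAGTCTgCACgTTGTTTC
IFI16 second start, chr1:159009824-159009899, plus strand, 83 to 8 bases before the start: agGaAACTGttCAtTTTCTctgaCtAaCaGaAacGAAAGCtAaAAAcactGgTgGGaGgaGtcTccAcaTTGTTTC

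The core of the interferon-stimulated response element, searched on both strands as GAAA, any 2 bases and GAAA, is bound by interferon-regulated transcription factors. It occurred once in MNDA, as GAAATAGAAA with its first base 85 bases before the start and so within the shared stretch, and once in AIM2 on the opposite strand. It did not occur in PYHIN1 or at either start of IFI16, and 3.02% of 35116 promoters held it. The ETS core GAGGAA, which PU.1 binds, occurred only in MNDA among these promoters (23.6% of all promoters), 113 bases before the start and without overlap with the response element. The gamma-activated site TTCNNNGAA occurred in none of them (6.57% of all promoters). These are matches of letters in a window, and no binding was measured. The AIM2 match, with the response element in capitals as it reads on the strand of the gene, is shown since AIM2 lacks the shared stretch.
AIM2, chr1:159076927-159076976, minus strand, 210 to 161 bases before the start: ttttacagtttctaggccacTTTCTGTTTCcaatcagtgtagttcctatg

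MNDA, the nuclear differentiation antigen of myeloid cells, was the member with the largest change, and SAHA brought it to nearly the same signal in both lines. In MV4-11 the signals were 1986.3, 1893.3 and 2107.5 with SAHA and 1703.9, 1873.1 and 1678.8 with the combination, against 223.3, 198.8 and 200.5 with DMSO. All SAHA-containing arrays lay above all DMSO arrays by a wide gap. ABT-869 alone gave 317.5, 248.3 and 319.5, also above every DMSO array. In MOLM-14 the signals were 1961.3, 2065.3 and 2342.3 with SAHA and 1760.4, 1961.8 and 2011.7 with the combination, against 465.2, 454.0 and 755.5 with DMSO. ABT-869 alone gave 433.5, 427.4 and 415.4 in MOLM-14, below every DMSO array. Ordered by mean log2 signal, the 4 SAHA-containing groups stood on top with ranges that overlapped between neighbours, from MOLM-14 with SAHA down to MV4-11 with the combination. Below them the order was MOLM-14 with DMSO, MOLM-14 with ABT-869, MV4-11 with ABT-869 and MV4-11 with DMSO, and none of these neighbours overlapped.

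**Figure D1:**
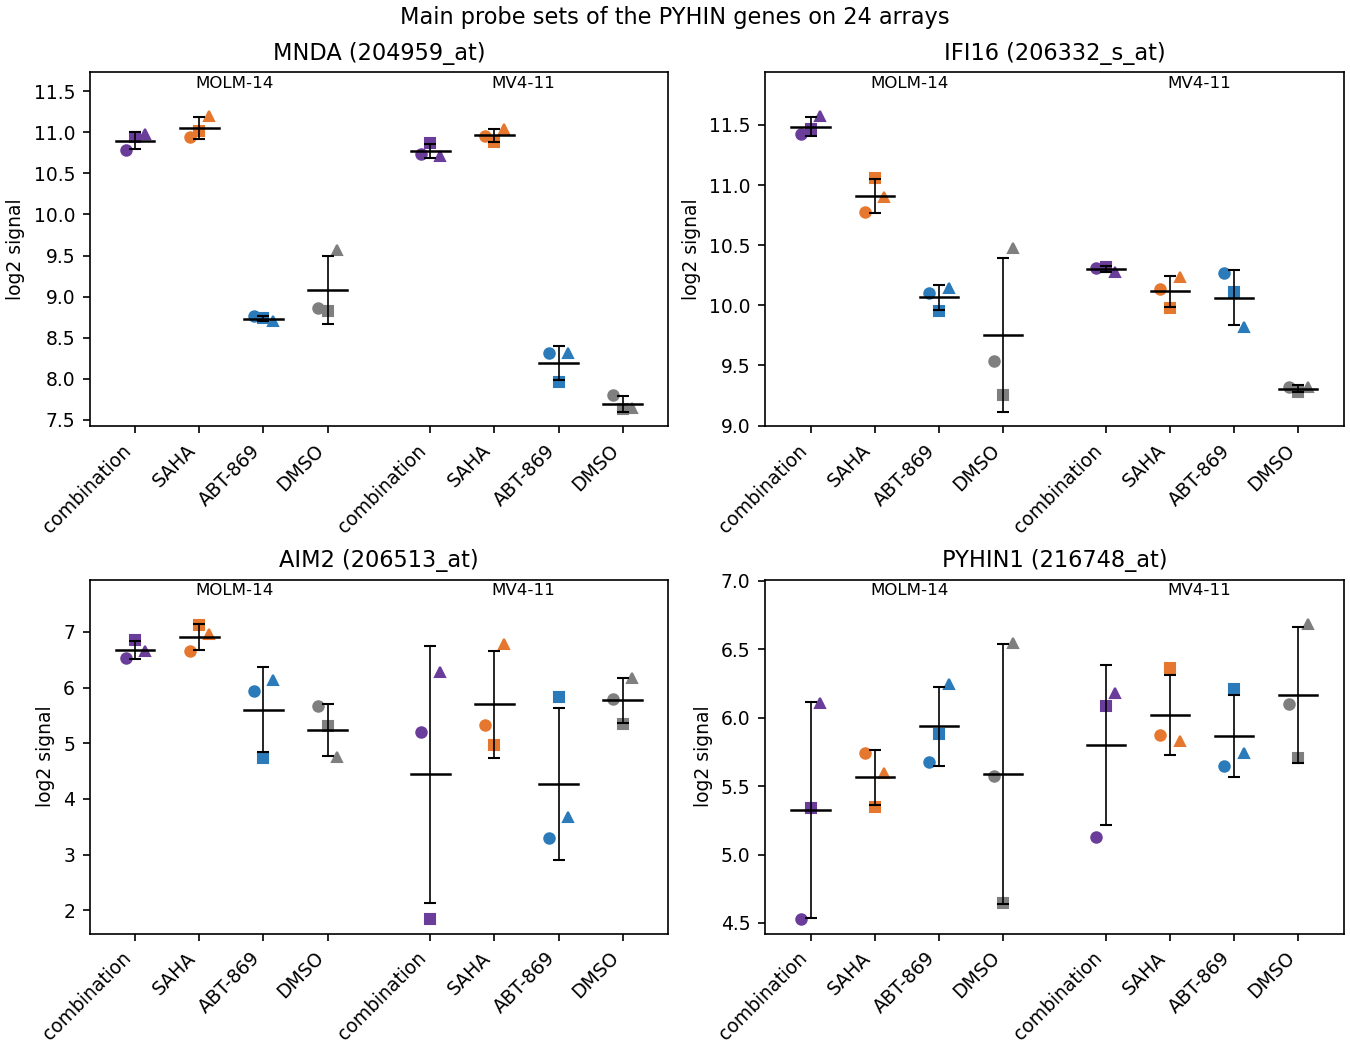
Log2 signal (vertical axis) of the main probe set of each PYHIN gene on every array, with MOLM-14 left and MV4-11 right in each panel. Circles, squares and triangles are replicates 1, 2 and 3, and the bars are the group mean and SD (n = 3). For MNDA the 4 SAHA-containing groups have means between 10.77 and 11.05, while the other groups lie between 7.70 and 9.08. For IFI16 the third DMSO array of MOLM-14 stands above the other DMSO arrays, and PYHIN1 shows no separation of the groups.

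The change of MNDA with SAHA in MV4-11 had the smallest p of all 54613 probe sets tested, and so had the change with the combination. The signal was 9.62-fold and 8.44-fold that of DMSO, with a log2 change of 3.27 for SAHA (standard error 0.135, limma adjusted p = 5.49e-05) and 3.08 for the combination (limma adjusted p = 5.87e-05). Of the 7 member probe sets, 3 were higher with SAHA in MV4-11 and 4 with the combination, where 1.47% and 4.89% of all probe sets were called higher. In MOLM-14 the change was smaller, 3.90-fold with SAHA (log2 1.96, standard error 0.191, limma adjusted p = 0.00389) and 3.52-fold with the combination (log2 1.81, limma adjusted p = 0.00317). There 5 of the 7 member probe sets were higher with SAHA and 4 with the combination, against 2.74% and 3.15% of all probe sets. Called means an adjusted p under 0.05 after Benjamini-Hochberg adjustment over all 54613 probe sets. The family was chosen with results of these arrays known, so these counts are no independent evidence of a direction. With only the groups compared in the fit, MNDA was not called in MOLM-14 with SAHA (adjusted p = 0.0841) or the combination (adjusted p = 0.0978). That setting called 0 of all probe sets in either comparison.

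**Figure D2:**
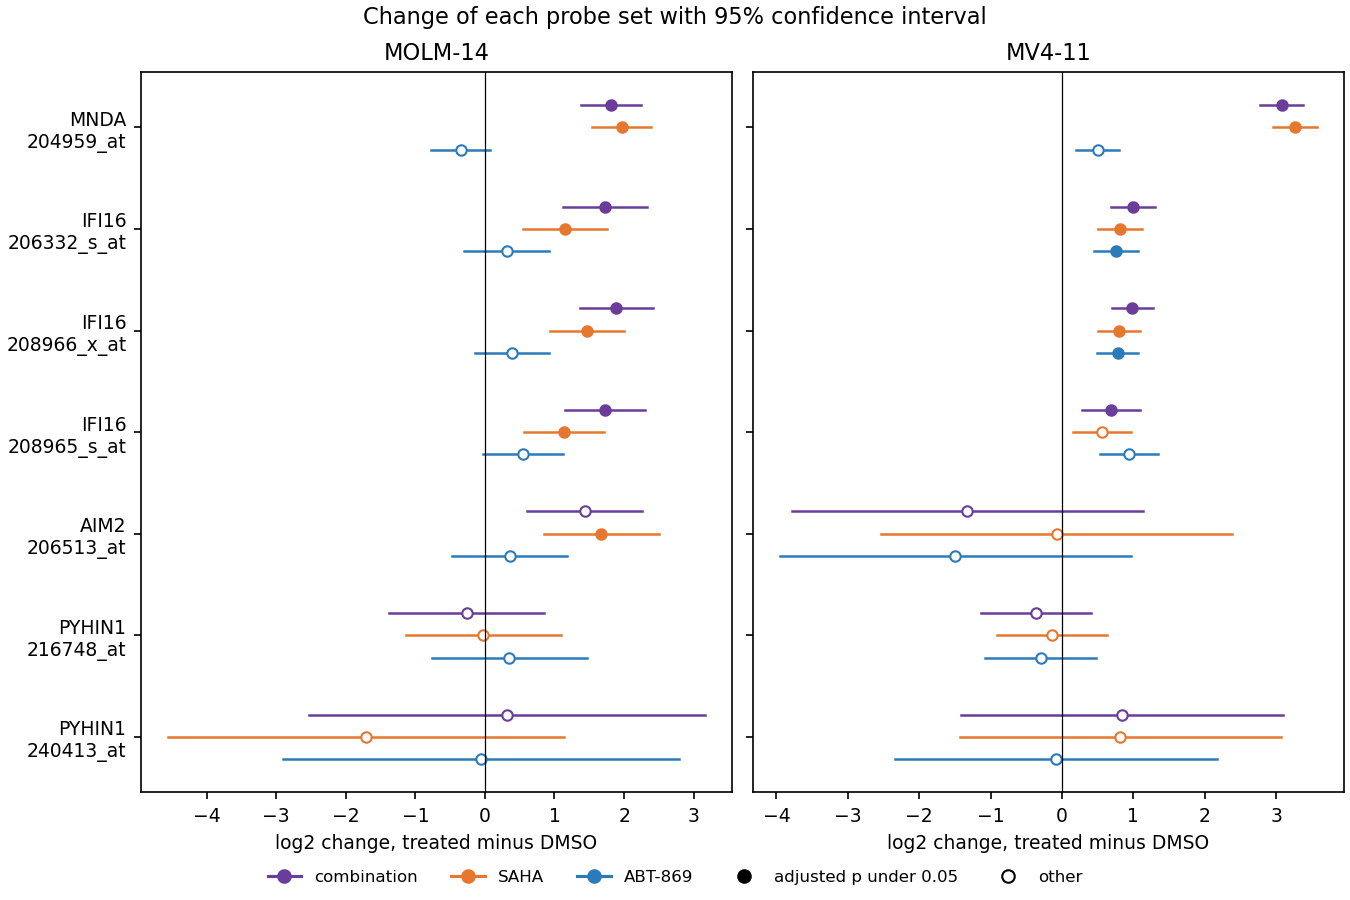
Log2 change of each of the 7 member probe sets (rows) with the combination, SAHA or ABT-869 minus DMSO, in MOLM-14 (left) and MV4-11 (right). Points are limma estimates, lines are 95% confidence intervals and filled points have an adjusted p under 0.05. MNDA with SAHA lies at 1.96 in MOLM-14 and 3.27 in MV4-11, and the PYHIN1 intervals all cross 0.

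The lines differed in the MNDA response, and this difference was tested as an interaction over all 24 arrays. The SAHA response was 1.30 lower on the log2 scale in MOLM-14 than in MV4-11 (−1.30, standard error 0.224, adjusted p = 0.00692), and the combination response differed by −1.26 (adjusted p = 0.00194). Lower calls made up 0.63% of all probe sets in the first of these comparisons and 3.41% in the second. With DMSO alone MNDA was higher in MOLM-14 than in MV4-11, at 558.2 ± 171 against 207.5 ± 13.7 (SD, n = 3 each), a log2 difference of 1.39 (adjusted p = 3.62e-05), where 4.96% of all probe sets were higher. It was the only member probe set called there. With SAHA the signals were 2123 ± 197 in MOLM-14 and 1996 ± 107 in MV4-11, with overlapping ranges. The ABT-869 response differed by −0.85 between the lines (adjusted p = 0.145) and was not called, nor was that of any other member, where 0.352% of all probe sets were called. It was called after dim probe sets were left out (adjusted p = 0.0385) and with limma-trend (adjusted p = 0.0352). With only the groups compared in the fit, neither the SAHA response (adjusted p = 0.0965) nor the level with DMSO (adjusted p = 0.0989) was called as different. That setting called 148 of all probe sets for the SAHA response and 2 for the level with DMSO. Without MOLM-14 DMSO replicate 3 the SAHA response differed by −1.06 (adjusted p = 0.00499).

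ABT-869 alone left MNDA below the threshold in both lines. In MOLM-14 the log2 change was −0.35 ± 0.191 (standard error) with a limma adjusted p of 0.742, and in MV4-11 it was 0.50 ± 0.135 with an adjusted p of 0.153. In MV4-11 it was called when signals under 32 were raised to 32 (adjusted p = 0.0308), when dim probe sets were left out (adjusted p = 0.0290) and with limma-trend (adjusted p = 0.0352). The combination was higher than ABT-869 alone by 2.17 in MOLM-14 (adjusted p = 0.00109) and by 2.58 in MV4-11 (adjusted p = 0.000479). With only the groups compared in the fit, the MV4-11 difference was not called (adjusted p = 0.125), where 2 of all probe sets were. Against SAHA alone, the combination differed by −0.15 in MOLM-14 (95% confidence interval −0.58 to 0.28, adjusted p = 0.841) and by −0.19 in MV4-11 (−0.49 to 0.12, adjusted p = 0.619). In MV4-11, MNDA was the only one of the 7 probe sets called higher with the combination than with ABT-869, where 1.89% of all probe sets were. In MOLM-14 the count was 4 of 7, MNDA and all 3 IFI16 probe sets, against 4.48%. No member was called by limma between the combination and SAHA, where 0.0146% of all probe sets were called in MOLM-14 and 0.749% in MV4-11. At an unadjusted p under 0.05, 1 member probe set passed in MOLM-14 (208965_s_at of IFI16, higher with the combination) and 0 in MV4-11. Over all probe sets the counts at that threshold were 5272 in MOLM-14 and 7184 in MV4-11.

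The summed signal of the 7 measured myeloid markers, most of it LYZ, moved to opposite sides of DMSO with SAHA in the 2 lines. In MOLM-14 it was 18768 to 21595 with ABT-869, 15651 to 17043 with SAHA and 14997 to 16753 with the combination, against 18514 to 20293 with DMSO. In MV4-11 it was 23760 to 26317 with ABT-869, 21796 to 23514 with SAHA and 22862 to 23232 with the combination, against 17355 to 18134 with DMSO. Of the 7 markers, 2 were higher and 0 lower with ABT-869 in MV4-11 (0.372% and 0.491% of all probe sets). None was called with ABT-869 in MOLM-14 (0.0165% in either direction). With SAHA, 1 of the 7 markers was higher and 1 lower in MOLM-14 (2.74% and 2.58% of all probe sets), and 2 were higher and 0 lower in MV4-11 (1.47% and 0.996%). With the combination 1 was higher and 1 lower in MOLM-14 (3.15% and 2.8% of all probe sets), and likewise in MV4-11 (4.89% and 4.05%). The median log2 change of the 7 markers with SAHA was 0.08 in MOLM-14 and 0.003 in MV4-11, against −0.14 and −0.05 over all. The opposite moves with SAHA were thus in the sum and not in the median. The part of these markers in the MNDA result was not tested.

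IFI16, the nuclear and cytosolic DNA sensor, was higher with SAHA and with the combination in both lines, and with ABT-869 in MV4-11. At its main probe set, 206332_s_at, the MV4-11 signals were 1230.2, 1102.6 and 903.0 with ABT-869, 1124.2, 1009.1 and 1206.8 with SAHA and 1270.8, 1277.1 and 1238.7 with the combination, against 640.5, 619.7 and 639.8 with DMSO. Every treated array lay above every DMSO array, and the ranges of ABT-869 and SAHA overlapped. In MOLM-14 the signals were 1100.7, 990.0 and 1133.6 with ABT-869, 1748.8, 2129.3 and 1910.4 with SAHA and 2741.3, 2824.7 and 3043.6 with the combination, against 742.2, 611.6 and 1426.4 with DMSO. The third DMSO array was higher than every ABT-869 array, while the SAHA and combination arrays lay above all DMSO arrays. Ordered by mean log2 signal, MOLM-14 with the combination stood first, then MOLM-14 with SAHA and MV4-11 with the combination, with no overlap between these neighbours or with the next group. From MV4-11 with SAHA through MOLM-14 with ABT-869, MV4-11 with ABT-869 and MOLM-14 with DMSO to MV4-11 with DMSO, each group overlapped the next.

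In MV4-11 the 3 treatments gave changes of similar size at the main IFI16 probe set. The log2 change was 0.76 with ABT-869 (standard error 0.137, limma adjusted p = 0.0446), 0.81 with SAHA (adjusted p = 0.0199) and 0.99 with the combination (adjusted p = 0.00292). These were 1.69-fold, 1.75-fold and 1.99-fold. At 208965_s_at the changes differed more, 0.94 with ABT-869, 0.55 with SAHA and 0.69 with the combination. With ABT-869, 2 of the 7 member probe sets were called higher, both of IFI16, where 0.372% of all probe sets were. The ABT-869 call was close to the threshold and was lost without any 1 of the 12 arrays (adjusted p = 0.0521 to 0.148). The SAHA call was lost without any 1 of the 3 DMSO or the 3 SAHA arrays (adjusted p = 0.0524 to 0.0789), while the combination was called in all 12 such fits.

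In MOLM-14 the change of IFI16 was 1.15 with SAHA (log2, standard error 0.268, limma adjusted p = 0.0411) and 1.73 with the combination (adjusted p = 0.00859), or 2.22-fold and 3.31-fold. With ABT-869 it was 0.31 (adjusted p = 0.838), and none of the 7 member probe sets was called by limma, where 0.0165% of all probe sets were called in either direction. At an unadjusted p under 0.05 the count was 0 of 7 members and 3970 of all probe sets. MOLM-14 DMSO replicate 3 weighed on these values. Without it, the change was 0.67 with ABT-869 (adjusted p = 0.321), 1.51 with SAHA (adjusted p = 0.00413) and 2.09 with the combination (adjusted p = 0.00166). Leaving out any other single array of MOLM-14 ended the SAHA call (adjusted p = 0.0595 to 0.129). With only the groups compared in the fit, neither the SAHA change (adjusted p = 0.186) nor the combination change (adjusted p = 0.122) was called. That setting called 0 of all probe sets in either comparison. The combination was higher than ABT-869 alone by 1.42 (adjusted p = 0.0133), and higher than SAHA alone by 0.58 without passing the test (95% confidence interval −0.03 to 1.18, adjusted p = 0.535). IFI16 is also on the study's own list of genes that changed 2-fold or more only with the combination, in both lines. The list was selected on these arrays, so the direction of IFI16 there is not independent evidence. By the fold changes computed here, from differences of mean log2 signal, the main probe set was 2.22-fold with SAHA alone in MOLM-14 and 1.99-fold with the combination in MV4-11. Probe set 208966_x_at, which the list also holds, was 2.77-fold and 1.98-fold in the same comparisons. The paper does not state how its fold changes were computed, so its values need not match these.

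The other IFI16 probe sets changed in the same direction as the main one in every comparison with DMSO. In MV4-11, 208965_s_at ordered the treatments differently. Probe set 208966_x_at, whose suffix marks probes that may also bind other transcripts, had signals of 2503.4, 2752.4 and 2743.6 with the combination, against 574.9, 586.5 and 1110.4 with DMSO, in MOLM-14. In MV4-11 it had 1260.3, 1067.1 and 1077.2 with the combination, against 576.7, 547.4 and 592.0 with DMSO. No combination array overlapped a DMSO array in either line, and the third MOLM-14 DMSO array was again the highest of its group. Probe set 208965_s_at had 1134.4, 1286.5 and 1401.4 with the combination, against 326.1, 286.4 and 603.1 with DMSO, in MOLM-14. In MV4-11 it had 614.7, 606.8 and 443.7 with the combination, against 326.2, 318.4 and 382.3 with DMSO. Its SAHA change in MV4-11 was the smallest of the 3, 0.55 (adjusted p = 0.164), and its ABT-869 change was 0.94 (adjusted p = 0.0550). Its combination change there was 0.69 (limma adjusted p = 0.0466), below its ABT-869 change. The combination minus ABT-869 was −0.25 at this probe set (adjusted p = 0.545) and 0.24 at the main one (adjusted p = 0.433). After the mean of each line was subtracted, the 2 other probe sets correlated with the main one at r = 0.981 and r = 0.936 over the 24 arrays. This is a description, since the probe sets share their arrays and their gene.

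**Figure D3:**
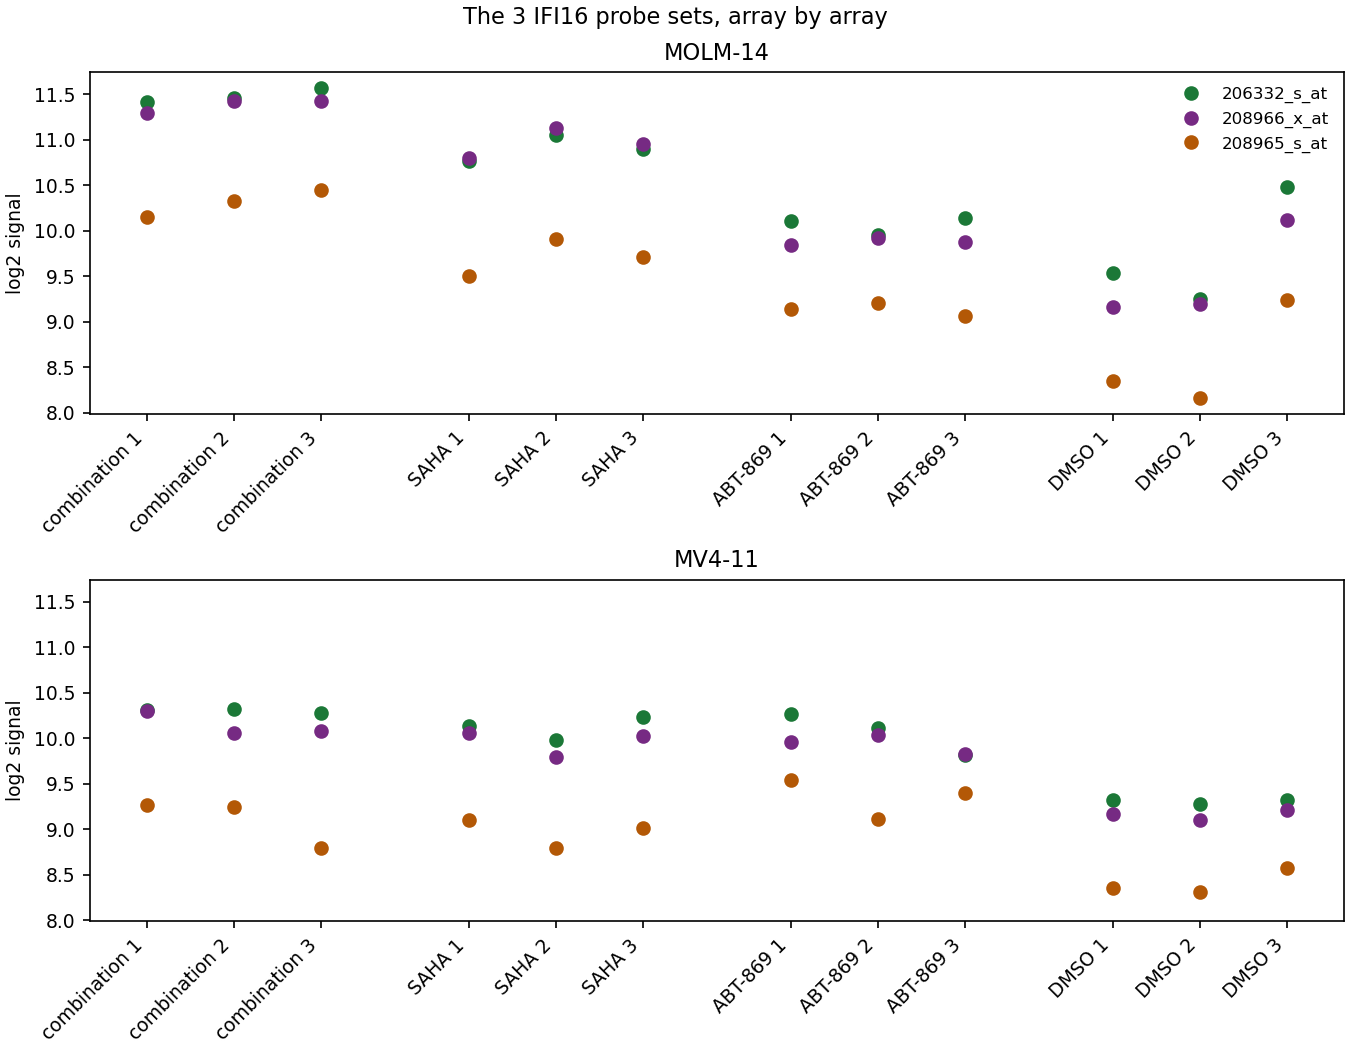
Log2 signal of the 3 IFI16 probe sets on each of the 12 arrays of MOLM-14 (top) and MV4-11 (bottom), by treatment and replicate number. Levels of different probe sets are not comparable, and the pattern over arrays is. On MOLM-14 DMSO replicate 3 all 3 probe sets stand above DMSO replicates 1 and 2.

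Whether the combination response of IFI16 differed between the lines depended on the probe set and on 1 array. At the main probe set the difference was 0.73 ± 0.298 (standard error, adjusted p = 0.185), higher in MOLM-14, and the SAHA and ABT-869 responses differed by 0.34 (adjusted p = 0.738) and −0.45 (adjusted p = 0.653). At 208966_x_at the combination response was 0.90 higher (adjusted p = 0.0470) and at 208965_s_at 1.04 higher (adjusted p = 0.0543). Higher calls were 3.14% of all probe sets in this comparison, and 1 of 7 members. Without MOLM-14 DMSO replicate 3, all 3 IFI16 probe sets were called, at 1.09 to 1.37 (adjusted p = 0.000357 to 0.00202), where 6.22% of all probe sets were called in either direction. With DMSO alone, IFI16 was 0.45 higher in MOLM-14 than in MV4-11 at the main probe set (adjusted p = 0.220), and 0.0894 higher without that array (adjusted p = 0.786). With arrays centred on their medians the difference was 0.71 (adjusted p = 0.0386), and without MOLM-14 DMSO replicate 2 it was 0.70 (adjusted p = 0.0429).

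The combination was then set beside the sum of the single-drug log2 changes. For MNDA in MV4-11 the combination gave 3.08 and the sum 3.77, a departure of −0.69 (95% confidence interval −1.12 to −0.26, adjusted p = 0.337 from limma). For IFI16 in MV4-11 it gave 0.99 and the sum 1.57, a departure of −0.57 (−1.01 to −0.13, adjusted p = 0.461), and the other IFI16 probe sets departed by −0.59 and −0.81. In MOLM-14 the combination gave 1.81 and the sum 1.61 for MNDA (departure 0.20, adjusted p = 0.888), and 1.73 and 1.46 for IFI16 (departure 0.27, adjusted p = 0.893). No member was called in either line, where 0.0128% of all probe sets were called in MOLM-14 and 0.022% in MV4-11. At an unadjusted p under 0.05, 0 of the 7 member probe sets departed in MOLM-14 and 4 of 7 in MV4-11, MNDA and the 3 of IFI16, beside 4056 and 4512 of all probe sets. With limma-trend, 0 of all probe sets were called in MOLM-14 and 499 in MV4-11. The MOLM-14 departures of MNDA and IFI16 turned negative without DMSO replicate 3 and with arrays centred on their medians.

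**Figure D4:**
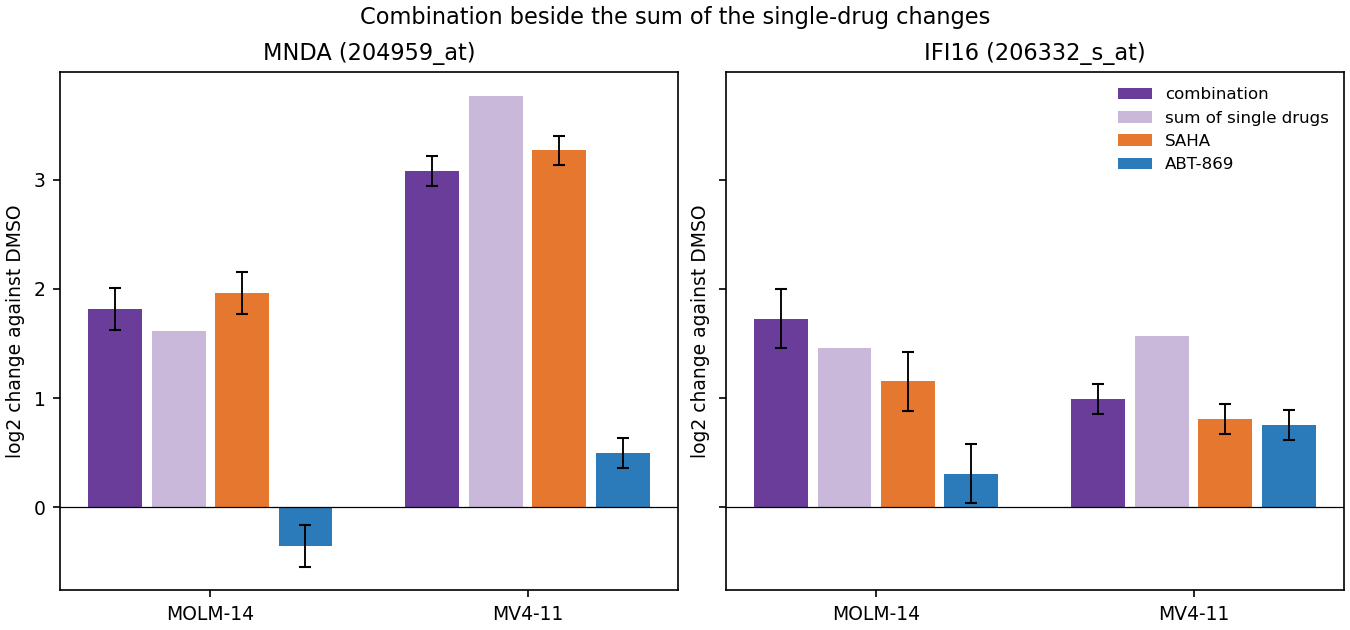
Log2 change against DMSO of MNDA (left) and IFI16 (right) with the combination, SAHA and ABT-869, beside the sum of the single-drug changes. Error bars are standard errors from limma, and the sum carries none. In MV4-11 the combination lies below the sum, at 3.08 against 3.77 for MNDA and 0.99 against 1.57 for IFI16.

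AIM2, the cytosolic DNA sensor that forms an inflammasome, was dim, with a mean log2 signal below the median of all probe sets. In MOLM-14 its signals were 101.0, 138.9 and 125.1 with SAHA and 92.4, 115.2 and 100.3 with the combination, against 51.0, 39.6 and 26.9 with DMSO. None of the SAHA-containing arrays overlapped the DMSO arrays, and ABT-869 alone gave 61.2, 26.5 and 70.6, which did overlap them. The log2 change was 1.67 with SAHA (standard error 0.367, limma adjusted p = 0.0336) and 1.43 with the combination (adjusted p = 0.0540). In MV4-11 the signals were 9.90, 56.9 and 12.8 with ABT-869, 40.2, 31.4 and 110.6 with SAHA and 36.6, 3.60 and 77.5 with the combination, against 55.3, 40.8 and 71.7 with DMSO. The groups overlapped, and the ABT-869 change was −1.50 with a standard error of 1.09 (adjusted p = 0.623).

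The AIM2 call with SAHA in MOLM-14 was lost in 8 of the 12 fits that left out 1 array, namely any DMSO array, any SAHA array and combination replicates 2 and 3 (adjusted p = 0.0535 to 0.112). Without MOLM-14 DMSO replicate 3 the change was 1.42 (adjusted p = 0.0874). In that fit 4 of the 7 member probe sets were called with SAHA, where 4.16% of all probe sets were called in either direction. In a fit over all 24 arrays, where the wider spread of MV4-11 enters, it was not called (adjusted p = 0.272). The combination change was called when signals under 32 were raised to 32 (1.35, adjusted p = 0.0207), with limma-trend (adjusted p = 0.0332) and without MOLM-14 ABT-869 replicate 2 (adjusted p = 0.0179). The SAHA response of AIM2 differed by 1.74 between MOLM-14 and MV4-11 (95% confidence interval −0.77 to 4.25, adjusted p = 0.634), so a difference between the lines was not shown.

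PYHIN1, a nuclear protein linked to growth control, passed no test in any of the 6 comparisons with DMSO at either probe set. Its main probe set had signals of 23.1 to 103.1 over all 24 arrays and a mean log2 signal below the median of all probe sets, and the second, 240413_at, had 0.60 to 42.2. By mean log2 signal, MV4-11 with DMSO was highest (74.6 ± 26.0) and MOLM-14 with the combination lowest (44.2 ± 23.1, SD, n = 3 each), and every group overlapped its neighbour in the order. The log2 changes of the main probe set were between −0.37 and 0.35. At this signal a change could not be told from the spread, which does not show that PYHIN1 was unchanged.

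Among the partners of the inflammasome that AIM2 can form, calls with SAHA were higher in MOLM-14 and split in MV4-11, and the difference between the lines was not tested. Of 19 measured genes of this list, 4 were higher and 0 lower in MOLM-14 with SAHA, where 2.74% and 2.58% of all probe sets were, and 4 were higher and 0 lower with the combination, where 3.15% and 2.8% were. In MV4-11, 1 was higher and 1 lower with SAHA (1.47% and 0.996% of all probe sets), and 0 higher and 2 lower with the combination (4.89% and 4.05%). The median log2 change of the list with SAHA was 0.20 in MOLM-14, against −0.14 over all probe sets tested, and −0.00 in MV4-11, against −0.05. CARD16, a decoy that binds caspase-1, averaged 792.7 ± 9.65 with SAHA and 422.1 ± 62.1 with DMSO in MOLM-14 (SD, n = 3 each, adjusted p = 0.00700 from limma). IL18, the cytokine that caspase-1 matures, averaged 2037 ± 126 with SAHA and 1168 ± 189 with DMSO there (adjusted p = 0.0198). TXNIP, a thioredoxin-binding protein that can activate NLRP3, rose with the combination in MOLM-14 (log2 0.65, adjusted p = 0.0105) and fell in MV4-11 (−0.78, adjusted p = 0.00455), and CARD8, an inflammasome sensor, fell in MV4-11 (−0.82, adjusted p = 0.00197) with 0.13 in MOLM-14 (adjusted p = 0.549).

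The listed genes of cytosolic DNA sensing, the wider pathway in which IFI16 acts, did not include IFI16 or AIM2. None of the listed genes was called higher with SAHA, which says little at the low shares of all probe sets given next. Of 19 measured genes, 0 were higher and 3 lower in MOLM-14 with SAHA (2.74% and 2.58% of all probe sets), and none was called in MV4-11 (1.47% and 0.996%). The median log2 change of the list with SAHA was −0.16 in MOLM-14, close to the −0.14 over all probe sets, and 0.02 in MV4-11, against −0.05 over all. With the combination 0 were higher and 4 lower in MOLM-14 (3.15% and 2.8% of all probe sets), and 5 were higher and 2 lower in MV4-11 (4.89% and 4.05%). RNASEH2A, the catalytic subunit of ribonuclease H2, averaged 1794 ± 195 with the combination and 4551 ± 559 with DMSO in MOLM-14 (log2 −1.34, adjusted p = 0.00371 from limma). MRE11, a nuclease of double-strand break repair, fell with the combination in both lines (−0.86, adjusted p = 0.00934 in MOLM-14 and −0.54, adjusted p = 0.0402 in MV4-11). PRKDC, the catalytic subunit of DNA-dependent protein kinase, fell by 0.88 on the log2 scale with the combination in MOLM-14 (adjusted p = 0.0191) and rose by 0.45 in MV4-11 (adjusted p = 0.0451). The helicase DHX9 rose in MV4-11 with ABT-869 (0.88, adjusted p = 0.0334) and with the combination (1.03, adjusted p = 0.00340).

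Of 18 measured interferon receptors and factors, which act upstream of the PYHIN genes, 2 were higher and 2 lower in MOLM-14 with SAHA (2.74% and 2.58% of all probe sets). In MV4-11, 0 were higher and 2 lower with SAHA (1.47% and 0.996%). With the combination 1 was higher and 1 lower in MOLM-14 (3.15% and 2.8%), and 1 higher and 4 lower in MV4-11 (4.89% and 4.05%). The median log2 change of the list with the combination in MV4-11 was −0.30, against −0.02 over all probe sets tested. In MOLM-14 it was −0.12, against 0.03. IRF7, a master factor of type I interferon induction, fell with SAHA in both lines. It averaged 309.9 ± 1.998 with SAHA and 661.2 ± 43.7 with DMSO in MOLM-14 (log2 −1.09, adjusted p = 0.0135 from limma), and 331.6 ± 18.2 with SAHA and 867.9 ± 40.5 with DMSO in MV4-11 (−1.39, adjusted p = 0.00340). IRF8, a factor of monocyte development, fell with SAHA in MOLM-14 (−0.78, adjusted p = 0.00840) and was at −0.14 in MV4-11 (adjusted p = 0.619). IFNGR1, a chain of the interferon gamma receptor, rose with SAHA in MOLM-14 (0.62, adjusted p = 0.0169). SOCS1, a suppressor of cytokine signalling, rose with SAHA in MOLM-14 (0.92, adjusted p = 0.0168). It fell with ABT-869 in MV4-11 (−1.15, adjusted p = 0.00969), the only gene of this list called there, where 0.491% of all probe sets were lower. With the combination in MV4-11, SOCS1 (−1.77, limma adjusted p = 0.000278) and IRF7 (−1.74, adjusted p = 0.000380) fell further. With the combination in MOLM-14 neither was called (SOCS1 −0.30, adjusted p = 0.376, and IRF7 −0.71, adjusted p = 0.0516).

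RefSeq places the members on chromosome 1 in the order MNDA, PYHIN1, IFI16 and AIM2, and of 20 listed genes around them 12 were measured, with 3 above the median signal. With SAHA, 1 of the 12 was higher and 0 lower in each line, where 2.74% of all probe sets were higher in MOLM-14 and 1.47% in MV4-11, so that a count this low says little about the neighbours. With ABT-869 none was called, where 0.0165% of all probe sets were called in MOLM-14 and 0.372% were higher in MV4-11. The neighbour called with SAHA was CD1D, which presents lipids to T cells. It averaged 728.3 ± 34.9 with SAHA and 473.5 ± 32.4 with DMSO in MOLM-14 (log2 0.62, adjusted p = 0.0216 from limma), and 572.3 ± 25.5 with SAHA and 254.1 ± 6.77 with DMSO in MV4-11 (1.17, adjusted p = 0.00349). With the combination in MV4-11, CD1D (0.91, adjusted p = 0.00333) and the phosphatase gene DUSP23 (0.88, adjusted p = 0.0473) rose and ACKR1, the Duffy chemokine receptor, fell (−1.62, adjusted p = 0.0362) at a signal under 32. None of the 12 was called with the combination in MOLM-14.

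The genes most like MNDA over the arrays were found by Pearson correlation of log2 signals over the 24 arrays, after the mean of each line was subtracted, among 22733 probe sets of 11955 genes. They were IQCK (r = 0.969), MARCHF8 (r = 0.967), CFLAR (r = 0.965), POGLUT2 (r = 0.963) and RNASE2CP (r = 0.962). All 5 had smaller changes with SAHA than MNDA, between 0.72 and 1.07 in MOLM-14 and between 1.16 and 1.78 in MV4-11. CFLAR encodes an inhibitor of caspase-8, and MARCHF8 a membrane-bound ubiquitin ligase. Those most like IFI16 were ACADSB (r = 0.968), ZBED5-AS1 (r = 0.949), ANXA2 (r = 0.944), NPTX2 (r = 0.941) and FCRLA (r = 0.939). ACADSB is an enzyme of branched-chain amino acid breakdown, and ANXA2 a membrane-binding protein. Like IFI16, ACADSB is on the study's own list of genes that changed only with the combination. MNDA and IFI16 themselves correlated at r = 0.733, and neither was among the 5 genes most like the other. The 5 were picked for the highest r, so a lower value for the pair follows from that. The arrays share treatments, so that genes with the same responses correlate. Over the 8 group means instead, MARCHF8 ranked 1 for MNDA, RNASE2CP ranked 130 and ACADSB ranked 7 for IFI16.

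**Figure D5:**
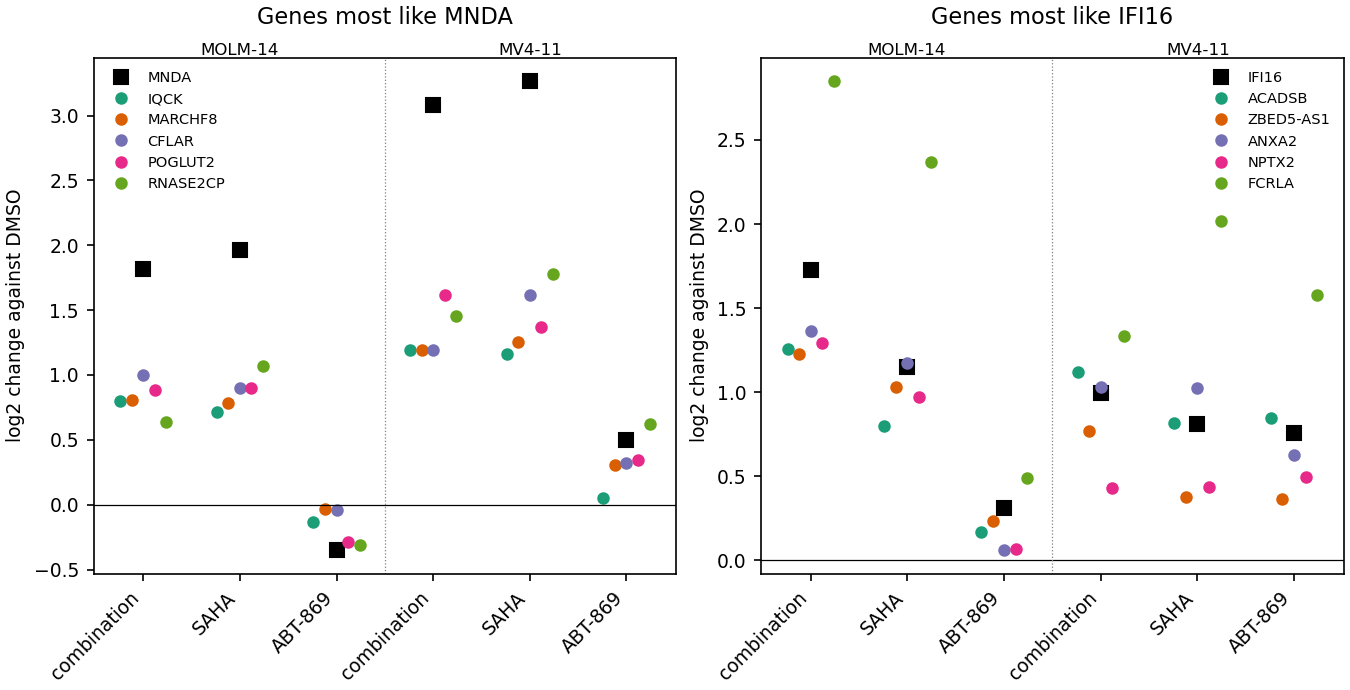
Log2 change against DMSO of the 5 genes most like MNDA (left) and IFI16 (right) over the arrays, with MNDA and IFI16 themselves as black squares. Within each panel the columns are the combination, SAHA and ABT-869, first in MOLM-14 and then in MV4-11. The 5 genes most like MNDA lie below it with SAHA in both lines, and FCRLA lies above IFI16 in every column.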

How the data were processed

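Gene expression was measured in 24 cultures, 1 Affymetrix U133 Plus 2.0 array each. The deposited intensity values were linear signals, 1 per probe set, which the authors had summarised and scaled, with a trimmed mean (2% at each end) of 500.1 on every array. The software was not given in the sources used here. Signals under 1 (0.209%) were raised to 1 and log2 was taken, with no further normalization. After 62 controls were left out, limma (version 3.58.1 under R 4.3.3) was fitted to 54613 of 54675 probe sets, per line over 12 arrays and 4 groups, and over 24 arrays and 8 groups for differences between lines. P-values were Benjamini-Hochberg adjusted over all probe sets. The alternatives were quantile normalization, median centring, signals raised to at least 32, dim probe sets (mean not above the median) left out, limma-trend, a replicate block, 1 fit over 24 arrays, only the groups compared, each array left out, and other IFI16 probe sets. The fit was tested on simulated data.

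The members, the 4 gene lists and the marker lists were chosen with earlier results of these data known. The genes named are the members, up to 4 genes of each list that were called in the most comparisons with DMSO, and the 5 genes most like MNDA and IFI16. Listed genes were read at their brightest probe set by mean. Promoters were RefSeq's (GRCh38.p14), aligned locally.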

Additional observations from a re-analysis of the deposited data

Results flagged for a closer look

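The MNDA response differed between the lines by a test of the difference itself, an interaction over all 24 arrays. The SAHA response was lower in MOLM-14, by −1.30 on the log2 scale (MOLM-14 minus MV4-11, adjusted p = 0.00692 from limma), and the combination response by −1.26 (adjusted p = 0.00194). With SAHA all 3 arrays of each line lay above all 3 of its DMSO arrays, so that the direction was the same in both lines and the size was not. The level with DMSO was 558.2 ± 171 in MOLM-14 and 207.5 ± 13.7 in MV4-11 (SD, n = 3 each), and the level with SAHA was 2123 ± 197 in MOLM-14 and 1996 ± 107 in MV4-11 (SD, n = 3 each). What sets the level with SAHA was not tested.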

How the results depend on the processing

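Of 432 values recomputed under settings other than leaving out an array, 396 kept their direction and their side of the threshold. The cause of the other changes was not tested. Limma-trend, the replicate block, 1 fit over 24 arrays, only the groups compared and leaving out dim probe sets do not change the estimate. Under these settings the direction could not change, so the count is partly fixed in advance and does not measure robustness. With the replicate block, IFI16 was not called with ABT-869 in MV4-11 (0.76, adjusted p = 0.129), with SAHA in MV4-11 (0.81, adjusted p = 0.0674) or in MOLM-14 (1.15, adjusted p = 0.0584), nor AIM2 with SAHA in MOLM-14 (1.67, adjusted p = 0.0737). The deviations of same-numbered arrays correlated weakly or not at all (r = −0.19 to 0.18 in MV4-11 and −0.06 to 0.33 in MOLM-14, over 0.1 in 1 and 6 of 18 pairs), and all 6 were in MOLM-14 replicates 1 and 3, so the numbers were not taken to pair the samples. In 1 fit over all 24 arrays IFI16 with ABT-869 in MV4-11 (0.76, adjusted p = 0.0607) and AIM2 with SAHA in MOLM-14 (1.67, adjusted p = 0.272) were not called. With only the groups compared, fewer samples estimated the spread. In MOLM-14 the count called over all probe sets was then 0 with SAHA and 0 with the combination. In MV4-11 it was 0 with ABT-869, 114 with SAHA and 2 for the combination over ABT-869. Between lines it was 148 for the SAHA response and 2 for the level with DMSO. Where 0 of all probe sets were called, a lost call says nothing particular about a member. Of the member results, 10 calls were lost. They were MNDA with SAHA (1.96) and the combination (1.81) in MOLM-14, the combination over ABT-869 in MV4-11 (2.58), the SAHA response between lines (−1.30) and the level with DMSO (1.39), IFI16 with ABT-869 (0.76) and SAHA (0.81) in MV4-11 and with SAHA (1.15) and the combination (1.73) in MOLM-14, and AIM2 with SAHA in MOLM-14 (1.67).

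Centring lost IFI16 with ABT-869 in MV4-11 (0.64), called IFI16 between lines with DMSO (0.71) and turned the MOLM-14 departures of MNDA (−0.12) and IFI16 (−0.0532). With quantile normalization and with centring, AIM2 with SAHA in MV4-11 turned to 0.0475 and 0.0159 and PYHIN1 with SAHA in MOLM-14 to 0.23 and 0.23, and quantile normalization turned the PYHIN1 combination response between lines to −0.0259. A floor of 32 called MNDA with ABT-869 in MV4-11 (0.50) and AIM2 with the combination in MOLM-14 (1.35), limma-trend called both (0.50 and 1.43) and the MNDA response to ABT-869 between lines (−0.85), and leaving out dim probe sets called MNDA with ABT-869 in MV4-11 (0.50) and between lines (−0.85). Probe set 208965_s_at lost IFI16 in MV4-11 with ABT-869 (0.94) and SAHA (0.55) and turned its combination over ABT-869 (−0.25), and 208966_x_at called the combination response between lines (0.90).

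With each array left out, where the 2 arrays left are assumed to vary like the other groups, IFI16 was 0.66 to 0.88 with ABT-869 and 0.75 to 0.88 with SAHA in MV4-11, 0.90 to 1.51 with SAHA in MOLM-14, 0.48 to 1.09 for the combination response between lines, 0.0894 to 0.70 for the level with DMSO and −0.10 to 0.52 for the MOLM-14 departure. MNDA was −0.0383 to 0.33 for that departure, and its SAHA and combination calls held in each of these fits. AIM2 was 1.42 to 1.89 with SAHA and 1.19 to 1.65 with the combination in MOLM-14, −0.62 to 0.29 with SAHA in MV4-11 and −0.68 to 1.53 for the MV4-11 departure. PYHIN1 was −0.37 to 0.12 with SAHA in MV4-11, −0.12 to 0.83, −0.49 to 0.46 and −0.73 to 0.22 with ABT-869, SAHA and the combination in MOLM-14, −0.19 to 0.41 for the MV4-11 departure, and −0.35 to 0.60 and −0.37 to 0.58 for the SAHA and combination responses between lines. The probe sets called by the settings varied, from 114 to 3917 for SAHA in MV4-11 (1345 as reported) and from 0 to 6426 in MOLM-14 (2904). Signal over background limits AIM2 and PYHIN1, whose mean log2 signals over the 24 arrays lay below the median of all probe sets.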
